A study of Homo sapiens with 9 samples.

Results

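The 9 genes HOXB1 to HOXB9, which lie next to each other in the HOXB cluster, and HOXD1, a gene of the separate HOXD cluster, were described across 3 states of H9, an established line of human embryonic stem cells. The members were chosen by their symbols, and all 10 were found among the 21417 gene symbols of the table, each with a single transcript. The libraries were 3 of undifferentiated H9 cells at day 0 (hESC), 3 of neuroectoderm at day 5 and 3 of mesendoderm at day 5. All 3 states came from H9 cells kept on Matrigel in mTeSR1 medium. Neuroectoderm had been made with 200 nM NOGGIN, which blocks BMP ligands, and 10 μM SB431542, which inhibits the activin and Nodal receptors. Mesendoderm had been made with 5 ng/ml hBMP4 in mTeSR1. Total RNA depleted of ribosomal RNA was sequenced. Whether replicate libraries stem from different cultures is not stated in the labels, and p-values therefore rest on a spread between libraries that may be only technical.

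HOX genes encode homeodomain transcription factors that give cells along the body axis their position. Within a cluster they are switched on in their order along the chromosome, those at the HOXB1 end earlier and further to the front, those at the HOXB9 end later and further to the back. In the embryo this begins in the primitive streak and the mesoderm that leaves it, under WNT, FGF, CDX and retinoic acid inputs, and in neural tissue the cluster is used from the hindbrain backwards and not in the forebrain. Undifferentiated stem cells hold HOX clusters silent under Polycomb proteins.

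The promoters of HOXB1 and HOXD1 are shown because only these members had a promoter entry. Each is the 300 bases from 250 before to 50 after the gene's start, 5′ to 3′ on the gene's strand, from RefSeq on GRCh38.p14, a later build than the hg19 of the study. The HOXB1 promoter is at chr17:48530962-48531261 on the minus strand and the HOXD1 promoter at chr2:176188418-176188717 on the plus strand. The table of promoters matched 2 of the 10 members. Capitals mark the motif letters found.
HOXB1: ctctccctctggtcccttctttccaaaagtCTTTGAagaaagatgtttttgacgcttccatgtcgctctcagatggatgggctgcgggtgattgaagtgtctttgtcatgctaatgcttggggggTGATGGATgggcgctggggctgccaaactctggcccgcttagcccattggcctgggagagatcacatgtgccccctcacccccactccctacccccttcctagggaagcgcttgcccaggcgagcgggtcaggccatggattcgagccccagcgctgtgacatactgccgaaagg
HOXD1: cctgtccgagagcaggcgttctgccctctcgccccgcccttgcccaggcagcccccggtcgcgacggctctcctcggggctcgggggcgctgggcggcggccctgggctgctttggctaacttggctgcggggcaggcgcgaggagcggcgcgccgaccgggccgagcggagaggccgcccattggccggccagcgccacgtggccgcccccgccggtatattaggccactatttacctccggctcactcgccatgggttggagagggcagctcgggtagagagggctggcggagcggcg
The motifs searched on both strands were TGATNNAT (a site for PBX with a HOX protein), TGACAG (MEIS), TTTATG and TTTATT (CDX, which share their first letters), AGGTCA (retinoic acid receptors) and CTTTGA (TCF and LEF). The HOXB1 window held CTTTGA from base 31 and TGATNNAT from base 126, counted from the 5′ end, without overlap, and the other motifs had no match. The HOXD1 window held none of these letters. Among 34796 promoters of the same length, 7.42% held TGATNNAT and 12.9% held CTTTGA. The HOXD1 window was 74.3% G and C with 36 CpG dinucleotides, and the HOXB1 window 58% with 11, beside medians of 58.7% and 14 over all promoters.

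Levels are RPKM, read density per transcript length and library size, so that they can be set side by side between genes. Whole-read steps in the low values correspond to 36.3 to 69.2 M reads per library, at which 3 reads on a transcript of 1 kb amount to 0.0434 to 0.0826 RPKM (counting error only). The labelled cell types were checked against markers. In neuroectoderm, 5 of 5 tested neuroectoderm markers rose against hESC (PAX6, SOX1, OTX2, ZIC1 and HES5), while LHX2 and SIX3, forebrain and eye field factors, stayed at or below 0.2 RPKM. Over all tested genes 44.2% were called in that comparison. In mesendoderm, 6 of 6 primitive streak markers and 5 of 5 lateral mesoderm markers rose, where 17.0% of all tested genes were higher than in hESC. The endoderm factors SOX17, FOXA2 and HNF4A were at or below 0.32 RPKM there, so these endoderm factors were near 0 under the mesendoderm label. CXCR4, also on the endoderm list, had 1.23, 0.32 and 0.80 RPKM there and was not called against hESC (limma adjusted p = 0.171). In a fit of all genes above 0, SOX17 was called higher than in hESC and FOXA2 lower (limma adjusted p 0.0426 and 0.00104). All 6 amnion markers rose as well, from a summed 4.48 to 5.23 RPKM in hESC to 175.85 to 313.26 RPKM, as did 3 of 3 tested trophoblast markers, with the placental hormone subunit CGA at or below 0.06 RPKM. The part of amnion-marked cells in the HOXB levels was not tested. In these bulk samples, fewer cells with a transcript and less of it per cell cannot be told apart. The libraries hESC 2, neuroectoderm 1 and mesendoderm 1 stood apart from the rest of their groups along the third principal component, which held 12.3% of the variance.

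All HOXB genes were close to 0 in hESC and in neuroectoderm, and they were read in mesendoderm. The 54 HOXB values of hESC and neuroectoderm lay between 0 and 0.21 RPKM, 53 of them at or below 0.11 and 9 at 0, which amounts to about 0 to 29 reads with a median of 3. The 9 genes summed to 0.27, 0.43 and 0.26 RPKM in hESC 1, 2 and 3. In neuroectoderm they summed to 0.33, 0.40 and 0.15 RPKM. In mesendoderm the sums were 27.42, 4.47 and 16.53 RPKM. Every mesendoderm library was above every other library in this sum, and the 3 mesendoderm libraries were far apart from each other.

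**Figure D1:**
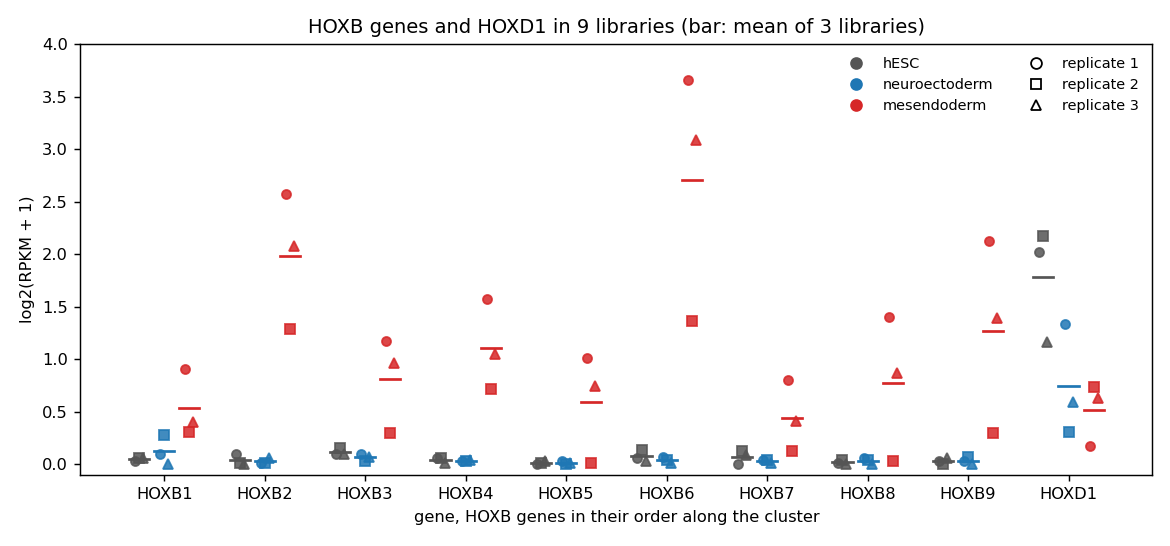
Level of each HOXB gene and HOXD1 as log2(RPKM + 1) in the 9 libraries, with points for libraries (colour for the group, shape for the replicate) and bars for the group means. The HOXB genes are near 0 in hESC and neuroectoderm and spread out in mesendoderm, with replicate 1 highest and replicate 2 lowest for each, and HOXD1 is highest in hESC.

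The front part of the cluster, HOXB1 to HOXB4, was read in every mesendoderm library. HOXB1, which sets the identity of a hindbrain segment, had 0.87, 0.24 and 0.32 RPKM in mesendoderm 1, 2 and 3 (mean 0.477 ± 0.343, SD, n = 3). It had 0.02, 0.04 and 0.04 RPKM in hESC and 0.07, 0.21 and 0 RPKM in neuroectoderm, where a single library came close to the lowest mesendoderm value. HOXB2, a hindbrain regulator that HOXB1 and EGR2 activate, had 4.95, 1.44 and 3.22 RPKM in mesendoderm (3.20 ± 1.76, SD, n = 3). Its hESC values were 0.07, 0.01 and 0 RPKM and its neuroectoderm values 0.01, 0.01 and 0.04 RPKM. Mesendoderm did not overlap with either other group for HOXB1 or HOXB2.

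HOXB3, active in the hindbrain and the pharyngeal region, had 1.26, 0.23 and 0.95 RPKM in mesendoderm (0.813 ± 0.528, SD, n = 3), against 0.07, 0.11 and 0.07 RPKM in hESC and 0.07, 0.02 and 0.05 RPKM in neuroectoderm. HOXB4, known for expanding blood stem cells when it is forced on, had 1.97, 0.64 and 1.07 RPKM in mesendoderm (1.23 ± 0.679, SD, n = 3). Its other 6 values lay at or below 0.04 RPKM, with 0.04, 0.04 and 0.01 in hESC and 0.02, 0.02 and 0.03 in neuroectoderm. Mesendoderm stood clear of both other groups for these genes too. Exons of HOXB3 share 279 bases with the antisense gene HOXB-AS1 in a GENCODE annotation of GRCh38, and reads of the overlap cannot be told apart where counting does not use strand.

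Of the middle and rear genes, HOXB6 was the most abundant member. HOXB6, a gene of the lateral plate mesoderm and of early blood progenitors, had 11.6, 1.57 and 7.51 RPKM in mesendoderm (6.89 ± 5.04, SD, n = 3), 0.04, 0.1 and 0.02 RPKM in hESC and 0.05, 0.03 and 0.01 RPKM in neuroectoderm. HOXB9, a regulator of the thoracic region, had 3.36, 0.23 and 1.62 RPKM in mesendoderm (1.74 ± 1.57, SD, n = 3). It had 0.02, 0 and 0.04 RPKM in hESC and 0.02, 0.05 and 0 RPKM in neuroectoderm. Both genes were above all other libraries in each mesendoderm library.

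HOXB5, HOXB7 and HOXB8 differed from these in that mesendoderm 2 was at the level of the other groups. HOXB5, which acts in the nerve cells of the gut and in the lung, had 1.02, 0.01 and 0.68 RPKM in mesendoderm, 0, 0.01 and 0.02 RPKM in hESC and 0.02, 0 and 0.01 RPKM in neuroectoderm. HOXB7, a trunk gene, had 0.74, 0.09 and 0.33 RPKM in mesendoderm, 0, 0.09 and 0.06 RPKM in hESC and 0.03, 0.03 and 0.01 RPKM in neuroectoderm. HOXB8, which holds myeloid progenitors in an immature state when forced on, had 1.65, 0.02 and 0.83 RPKM in mesendoderm, 0.01, 0.03 and 0 RPKM in hESC and 0.04, 0.03 and 0 RPKM in neuroectoderm. In mesendoderm 1 and 3 each of these genes was above all hESC and neuroectoderm libraries. In mesendoderm 2 about 1 read each stood behind HOXB5 and HOXB8 and about 4 behind HOXB7.

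HOXD1, whose place in the HOXD cluster corresponds to that of HOXB1, had the opposite order of groups. It had 3.05, 3.51 and 1.24 RPKM in hESC (2.60 ± 1.20, SD, n = 3), 1.52, 0.24 and 0.51 RPKM in neuroectoderm (0.757 ± 0.675, SD, n = 3) and 0.13, 0.66 and 0.55 RPKM in mesendoderm (0.447 ± 0.280, SD, n = 3). All hESC libraries were above all mesendoderm libraries, as for 26.5% of all genes above 0, while neuroectoderm 1 lay above hESC 3. The highest hESC library, the highest neuroectoderm library and the lowest mesendoderm library of HOXD1 were the 3 that stood apart in the principal components, and each HOXD1 difference is therefore also given without them. Exons of HOXD1 share 145 bases with the antisense gene HOXD-AS1, which was at or below 0.05 RPKM in hESC and at 0.15, 0.27 and 0.19 RPKM in mesendoderm.

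Which members differ between mesendoderm and hESC was tested on log2(RPKM + 1), a scale that understates changes of low genes. The members with a mean of at least 0.5 RPKM over the 9 libraries were HOXB2, HOXB6, HOXB9 and HOXD1, and the other 6 were below it. The 3 HOXB genes reached this minimum through mesendoderm alone, so their count supports nothing beyond each gene's own test. All 4 passed in limma's test with Benjamini-Hochberg adjustment over 14473 genes at an adjusted p under 0.05, 3 higher in mesendoderm and 1 lower, where 35.1% of all tested genes were called, 17.0% higher and 18.1% lower. HOXB6 was higher by 2.63 ± 0.47 (log2 difference ± SE, limma adjusted p = 0.00249). HOXB2 was higher by 1.94 ± 0.26 (limma adjusted p = 4.95e-04) and HOXB9 by 1.24 ± 0.37 (limma adjusted p = 0.0274). HOXD1 fell by 1.27 ± 0.32 (limma adjusted p = 0.0148).

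The 6 members below the minimum were read in a fit of all 21416 genes above 0, which was chosen after the data were seen. In it HOXB4 was higher in mesendoderm than in hESC by 1.07 ± 0.17 (limma adjusted p = 0.00198), HOXB3 by 0.70 ± 0.18 (limma adjusted p = 0.0220) and HOXB1 by 0.49 ± 0.14 (limma adjusted p = 0.0309). HOXB8 (0.75 ± 0.27, limma adjusted p = 0.0776), HOXB5 (0.58 ± 0.21, limma adjusted p = 0.0702) and HOXB7 (0.38 ± 0.14, limma adjusted p = 0.0791) did not pass. The fit thus called 6 of 9 HOXB genes higher, beside 12.1% of all genes, and HOXD1 lower, beside 14.5%, with 26.6% called in either direction. Without mesendoderm 2 the 3 genes that had missed the threshold passed it, with limma adjusted p-values of 1.05e-04 for HOXB5, 6.44e-04 for HOXB8 and 0.00703 for HOXB7. Mesendoderm 2 is the library where these genes were at the level of the other groups. Leaving it out largely sets this outcome, which is therefore no added support for a rise. Counted by ranges, 6 of 9 HOXB genes had every mesendoderm library above every hESC library, as had 19.6% of all genes above 0. Every mesendoderm library was above every neuroectoderm library for 7 of 9, beside 23.0% of all genes above 0, and above both other groups for 6 of 9, beside 11.5%.

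The calls of HOXB2, HOXB4 and HOXB6 held in every alternative run, while others rested on single libraries. HOXB9 lost its call without any 1 of hESC 1, hESC 2, hESC 3, mesendoderm 1 or mesendoderm 3 (limma adjusted p from 0.0568 to 0.0853), and without the 3 libraries that stood apart (0.0741). HOXD1 lost it without hESC 1, hESC 2 or mesendoderm 1 (0.0548 to 0.0572). HOXB3 lost it without any 1 hESC library, mesendoderm 1 or mesendoderm 3, or without the 3 libraries that stood apart (0.0548 to 0.0873), and HOXB1 without any 1 hESC library (0.0746 to 0.0847). Without the 3 libraries that stood apart HOXD1 fell by 0.91 (limma adjusted p = 0.0273), and HOXB6 and HOXB2 were higher by 2.18 and 1.63. Every direction in this comparison stayed the same in the alternatives run.

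**Figure D2:**
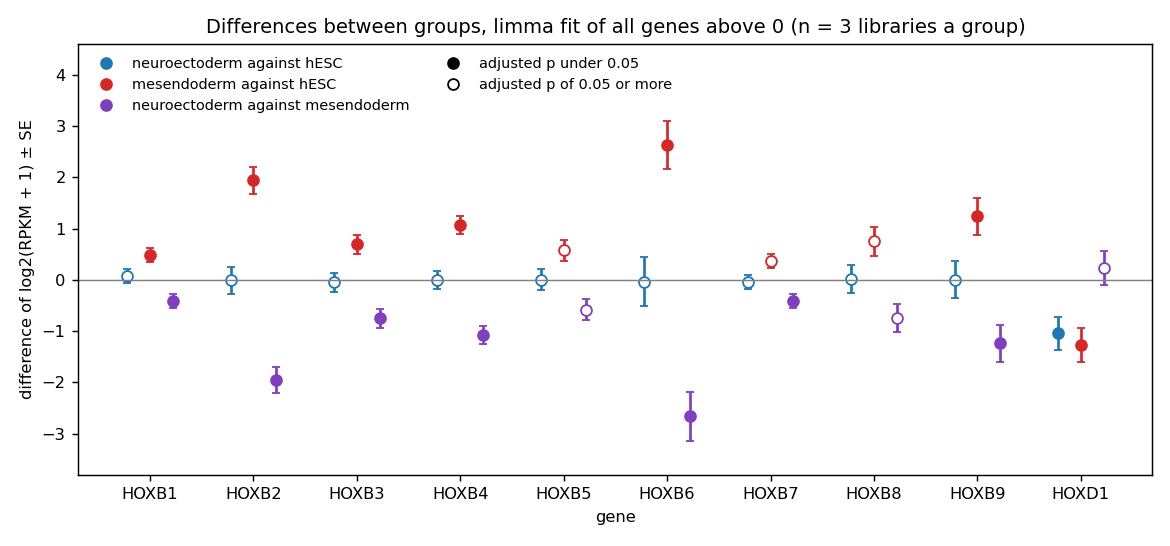
Difference of log2(RPKM + 1) ± SE between groups for each member in the fit of all genes above 0, for the 3 comparisons, with filled points for an adjusted p under 0.05. The HOXB genes lie at 0 for neuroectoderm against hESC and away from 0 in both comparisons with mesendoderm, and HOXD1 is below 0 in both comparisons with hESC.

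Neuroectoderm did not differ detectably from hESC for any HOXB gene at this depth. The log2 differences of HOXB2, HOXB6 and HOXB9 were -0.01 ± 0.26, -0.03 ± 0.47 and 0.00 ± 0.37 (limma adjusted p 0.982, 0.964 and 0.993). In the fit of all genes above 0, which called 32.8% of genes, 17.2% of them as lower, none of the 9 HOXB genes was called, and their differences lay between -0.05 and 0.08. HOXD1 fell by 1.04 ± 0.32 on the log2 scale (limma adjusted p = 0.0286), so that 1 of 4 tested members was called, where 44.2% of all tested genes were called and 22.3% were lower. This call was lost without hESC 1, hESC 2, neuroectoderm 2 or neuroectoderm 3 (limma adjusted p from 0.0837 to 0.0954), and held without the 3 libraries that stood apart (-1.14, limma adjusted p = 0.00886).

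Between the 2 differentiated states, HOXB genes were lower in neuroectoderm. The 3 comparisons share libraries pairwise and are not independent of each other. HOXB6 was lower than in mesendoderm by a log2 difference of -2.66 ± 0.47 (limma adjusted p = 0.00152), HOXB2 by -1.95 ± 0.26 (limma adjusted p = 3.00e-04) and HOXB9 by -1.24 ± 0.37 (limma adjusted p = 0.0207), and in this comparison 48.1% of all tested genes were called, 24.1% as lower. In the fit of all genes above 0 HOXB4 (-1.08 ± 0.17, limma adjusted p = 0.00125), HOXB3 (-0.75 ± 0.18, 0.0120), HOXB1 (-0.41 ± 0.14, 0.0477) and HOXB7 (-0.41 ± 0.14, 0.0461) also passed, making 7 of 9, where 35.6% of all genes were called and 17.7% were lower. HOXB5 and HOXB8 did not (limma adjusted p 0.0566 and 0.0676). HOXD1 differed by 0.23 ± 0.32 between these states (limma adjusted p = 0.577) and by -0.23 without the 3 libraries that stood apart (0.478), which shows neither a difference nor its absence. The HOXB9 call was lost without neuroectoderm 3 or mesendoderm 3 (0.0537 to 0.0643) without the 3 libraries that stood apart (0.0597) and in a fit of the 2 compared groups alone (0.0532). The calls of HOXB1 and HOXB7 were lost when most single libraries were left out (up to 0.141 and 0.107), and that of HOXB3 without the 3 libraries that stood apart (0.0570).

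Along the cluster the levels in mesendoderm did not rise or fall steadily from the HOXB1 end to the HOXB9 end. By mean level the order was HOXB6, HOXB2, HOXB9, HOXB4, HOXB8, HOXB3, HOXB5, HOXB1 and HOXB7, and the library ranges of each pair of neighbours in this order overlapped. HOXB6 was the highest and HOXB2 the next in each of the 3 libraries. The gene after these was HOXB9 in mesendoderm 1 and 3 and HOXB4 in mesendoderm 2. The lowest gene was HOXB7 in mesendoderm 1, HOXB5 in mesendoderm 2 and HOXB1 in mesendoderm 3. Spearman's rho between position and mean level was 0.133 over the 9 genes, given as a description of genes that share the same 3 libraries.

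**Figure D3:**
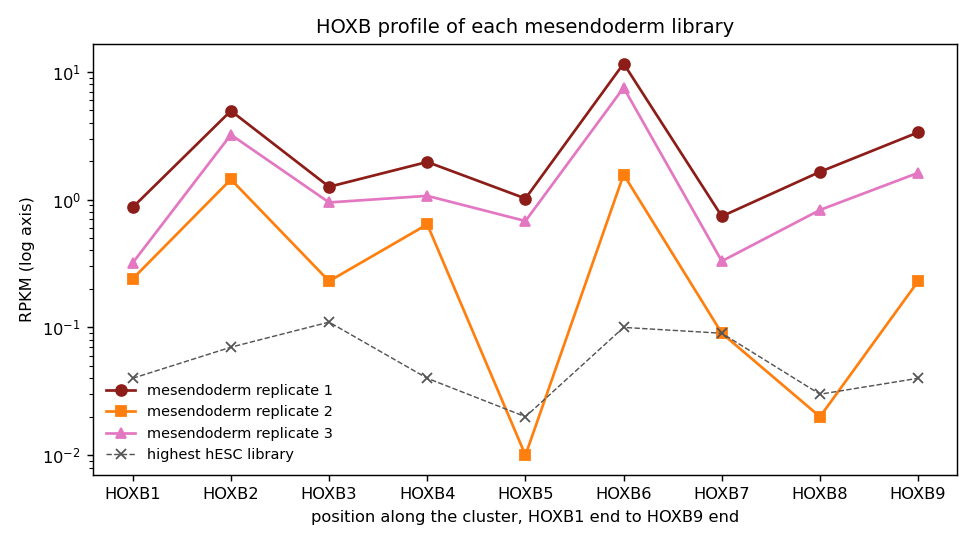
RPKM (log axis) of HOXB1 to HOXB9 in their order along the cluster, 1 line for each mesendoderm library, with crosses on the dashed line for the highest hESC library of each gene. Replicates 1 and 3 run almost parallel, while replicate 2 is lower throughout and meets the hESC level at HOXB5, HOXB7 and HOXB8.

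The 3 mesendoderm libraries were spread further for the HOXB genes than for most genes. The SD of log2(RPKM + 1) over the 3 libraries lay between 0.432 and 1.19 for the 7 HOXB genes with a mesendoderm mean of at least 0.5 RPKM (median 0.649). The median over 13593 tested genes at the same minimum was 0.127 and the 95th percentile 0.439, and 6 of the 7 HOXB genes were above that percentile. For all 9 HOXB genes mesendoderm 1 was highest and mesendoderm 2 lowest, an order that 21.1% of all genes above 0 had. In 7 of 9, mesendoderm 2 was below 0.5 times the lower of the other libraries, beside 5.53% of all genes above 0. HOXD1 had the reverse, with 0.13 RPKM in mesendoderm 1 and 0.66 RPKM in mesendoderm 2 (about 12 and 47 reads).

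The shortfall of mesendoderm 2 was not the same for each gene. Relative to mesendoderm 1 it was smallest for HOXB4, with a ratio of 0.325 (95% exact binomial counting interval 0.253 to 0.411, about 340 and 87 reads). HOXB2 had 0.291 (0.227 to 0.372), HOXB1 0.276 (0.159 to 0.474) and HOXB3 0.183 (0.111 to 0.286). These genes of the HOXB1 end thus kept a readable level in the lowest library. So did HOXB6 and HOXB9 of the rear genes, at 1.57 and 0.23 RPKM there.

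In the rear genes the same ratio was 0.135 for HOXB6 (0.109 to 0.168, about 886 and 95 reads), 0.122 for HOXB7 (0.0282 to 0.295) and 0.0685 for HOXB9 (0.0433 to 0.107, about 399 and 22 reads). It was 0.0121 for HOXB8 (0.000231 to 0.0520, about 138 and 1 reads) and 0.0098 for HOXB5 (0.000331 to 0.0753, about 96 and 1 reads). The ratios of HOXB1 to HOXB4 (0.183 to 0.325) and of HOXB5 to HOXB9 (0.0098 to 0.135) did not overlap, a division chosen after the values were seen and for that reason not tested. Their counting intervals did overlap, that of HOXB6 with those of HOXB1 (0.159 to 0.474) and HOXB3 (0.111 to 0.286). The interval of HOXB7 overlapped with those of HOXB1 to HOXB4. The intervals of HOXB5, HOXB8 and HOXB9 lay below those of HOXB1 to HOXB4. HOXB1 to HOXB4 summed to 9.05, 2.55 and 5.56 RPKM in mesendoderm 1, 2 and 3, and HOXB5 to HOXB9 to 18.37, 1.92 and 10.97 RPKM. The rear genes therefore made up the larger sum in mesendoderm 1 and 3 and the smaller in mesendoderm 2. Between mesendoderm 3 and mesendoderm 1 the ratios of the divisions overlapped, with 0.368 to 0.754 for HOXB1 to HOXB4 and 0.446 to 0.667 for HOXB5 to HOXB9. The reads are not independent molecules, and the intervals cover counting error only.

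Sums of lateral mesoderm and amnion markers moved with this order of libraries. The 5 lateral mesoderm markers summed to 241.27, 96.21 and 193.99 RPKM in mesendoderm 1, 2 and 3, with FOXF1 at 5.97, 0.65 and 4.36 RPKM and TBX20 at 2.94, 0.27 and 2.09 RPKM. The most abundant of these were BMP4 (142.57, 51.49 and 103.73 RPKM) and HAND1 (85.3, 41.85 and 79.09 RPKM), and 4 of the 5 had the order of the HOXB genes. The 6 amnion markers summed to 313.26, 175.85 and 242.45 RPKM, of which IGFBP3 alone had 217.08, 114.46 and 165.02. That order held for 4 of the 6, but not for WNT6 (9.81, 10.16 and 11.12 RPKM) and TFAP2A (14.79, 13.9 and 15.49 RPKM). The 6 primitive streak markers summed to 98.99, 153.66 and 151.23 RPKM and were mixed, with MIXL1 at 41.84, 86.81 and 76.17 RPKM but TBX6 at 7.09, 2.84 and 6.37 RPKM and MESP1 also lowest in mesendoderm 2. The 7 hESC markers summed to 380.63, 445.18 and 399.85 RPKM, with NANOG at 7.68, 18.42 and 10.55 RPKM. Mesendoderm 2 thus had the lowest lateral mesoderm and amnion sums together with the highest streak and stem cell sums, the streak sum being close to that of mesendoderm 3. The part of this in the HOXB spread was not tested.

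As a ratio of mesendoderm 2 to the mean of the other libraries, the 9 HOXB genes had a median of 0.168 (0.0118 to 0.421), all 9 under 1. The 5 lateral mesoderm markers had 0.418 (0.107 to 0.509) and the 6 amnion markers 0.629 (0.512 to 0.971). The 15 genes of the CDX and retinoic acid list had 0.801. The 6 streak markers had 1.13 (0.422 to 1.47, 3 of 6 under 1) and the 7 hESC markers 1.49 (0.874 to 2.92, 2 of 7 under 1). The lists were taken at a mesendoderm mean of at least 0.5 RPKM. Of the 2457 genes higher in mesendoderm than in hESC, 59.3% were lowest in mesendoderm 2.

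**Figure D4:**
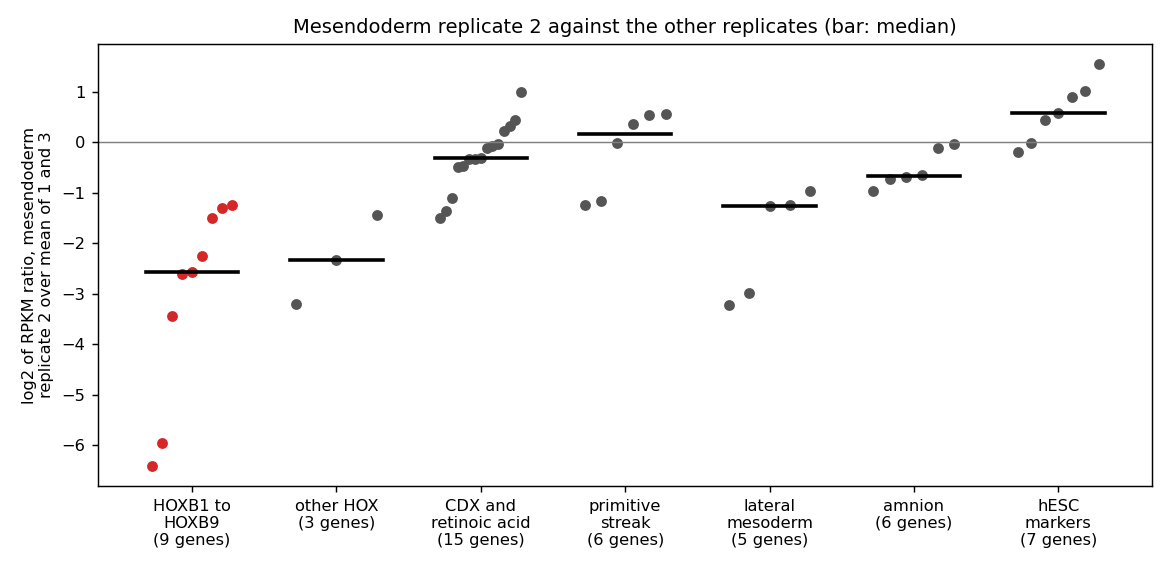
Log2 ratio of RPKM in mesendoderm replicate 2 to the mean of replicates 1 and 3, 1 point for each gene of a list with a mesendoderm mean of at least 0.5 RPKM (all 9 for HOXB), with bars for the medians. The HOXB genes lie below 0 throughout with HOXB5 and HOXB8 lowest, and the hESC markers lie mostly above 0.

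The other HOX genes, those of the HOXA, HOXC and HOXD clusters together with HOXB13, were mostly at the floor. In the fit of all genes above 0, 4 of 27 found were higher in mesendoderm than in hESC and 1 lower, beside 12.1% and 14.5% of all genes. Among the higher ones were HOXC13, HOXA13 and HOXB13, genes of the far rear end of their clusters, at 0.44 to 1.23, 0.09 to 0.89 and 0.09 to 0.15 RPKM in mesendoderm, and HOXD13 was lower. HOXC13 and HOXA13 had their lowest mesendoderm value in mesendoderm 2, as the HOXB genes did, and HOXB13 had its highest there.

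Of 11 noncoding or small genes within the HOX clusters, HOTAIRM1, a long noncoding RNA of the HOXA cluster, was tested and rose by 1.62 ± 0.31 (limma adjusted p = 0.00385), with 3.77, 0.73 and 2.81 RPKM in mesendoderm. The fit of all genes above 0 called 5 of 11 higher and 0 lower, beside 12.1% and 14.5% of all genes. Among the higher ones were HOXB-AS1 at 1.02, 0.71 and 1.03 RPKM and PRAC1, a small gene beyond HOXB9, at 1.06, 0.21 and 0.72 RPKM. HOXB-AS3, which runs through the middle of the cluster, had 1.35, 0.05 and 1.26 RPKM and was not called. As with HOXB5 and HOXB8, its mesendoderm 2 value lay among the values of hESC, 0 to 0.13 RPKM. Of 8 tested genes that flank the HOXB and HOXD clusters, 0 were higher in mesendoderm and 2 lower, beside 17.0% and 18.1% of all tested genes. These 8 genes are too few to read a difference from those shares. The lower ones were TTLL6 (-1.38 ± 0.12) and the heterochromatin protein gene CBX1 (-0.37 ± 0.11). The median log2 difference of the 8 was -0.15, beside -0.02 over all tested genes.

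The partners of HOX proteins on DNA, the PBX, MEIS and PKNOX factors, included genes that changed in each differentiated state. In mesendoderm against hESC 4 of 9 rose and 2 fell, with a median log2 difference of 0.12, and in neuroectoderm against hESC 5 rose and 2 fell, with a median of 1.09. Over all tested genes 35.1% and 44.2% were called in these comparisons. MEIS1 rose by 2.91 ± 0.22 in mesendoderm, to 9.29, 5.19 and 7.65 RPKM, and had 4.32, 7.58 and 6.81 RPKM in neuroectoderm. MEIS2 rose by 1.38 ± 0.30 in mesendoderm and had 9.12, 10.94 and 10.88 RPKM in neuroectoderm. MEIS3 rose by 1.36 ± 0.32 and PKNOX2 by 0.84 ± 0.23 in mesendoderm. Neuroectoderm thus held the MEIS cofactors with HOXB genes near 0.

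Among the inputs to HOX clusters, 7 of 14 tested CDX and retinoic acid genes rose in mesendoderm against hESC and 0 fell, with a median log2 difference of 0.60, beside 17.0% and 18.1% of all tested genes. In neuroectoderm 2 rose and 6 fell, where 44.2% of all tested genes were called. CDX2, which activates trunk HOX genes, had 19.72, 6.13 and 14.86 RPKM in mesendoderm and at most 0.03 RPKM elsewhere (3.70 ± 0.32, limma adjusted p = 3.25e-05). CDX1 had 15.12, 9.86 and 12.66 RPKM and at most 0.31 RPKM elsewhere (3.58 ± 0.16, limma adjusted p = 7.36e-07). Both were lowest in mesendoderm 2, as the HOXB genes were, but stayed well above the other groups there. CDX4 differed from them, with 3.71, 3.44 and 2.83 RPKM in hESC, where the HOXB genes were near 0. It had 5.26, 3.69 and 4.01 RPKM in mesendoderm and was not called against hESC (0.29 ± 0.17, limma adjusted p = 0.219). In neuroectoderm CDX4 had 0.48, 0.11 and 0 RPKM. CYP26A1, which breaks down retinoic acid, rose by 1.30 ± 0.19, and CRABP2, which carries it to the nucleus, by 1.27 ± 0.27.

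All 11 tested members of the list of hindbrain and posterior regulators rose in mesendoderm, with a median log2 difference of 2.73, beside 17.0% of all tested genes, and 5 rose and 1 fell in neuroectoderm. SP5, a target of WNT signalling, rose by 5.24 ± 0.25, and the ligands WNT8A, WNT3 and WNT5A by 4.11 ± 0.19, 3.78 ± 0.13 and 3.52 ± 0.40. SP5 and WNT3 were highest in mesendoderm 2, at 46.5 and 20.15 RPKM, whereas WNT5A was lowest there, at 7.59 RPKM against 29.89 and 23.56. Of 22 Trithorax and Polycomb genes, 3 rose and 7 fell in mesendoderm (median -0.03) and 10 rose and 2 fell in neuroectoderm (median 0.24). The 3 that rose in mesendoderm are a share near the 17.0% of all tested genes, of which 18.1% fell, and 44.2% of all tested genes were called in neuroectoderm. The Polycomb genes PHC1 and CBX2 fell by 1.63 ± 0.12 and 1.14 ± 0.20 in mesendoderm, and KDM6B, which removes the Polycomb mark, and PHC2 rose by 1.20 ± 0.20 and 0.95 ± 0.17.

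Of the hindbrain and spinal markers, OLIG2 and EN2 were at or below 0.04 RPKM in neuroectoderm, while EN1, a midbrain and hindbrain border gene, was at 0.94, 1.80 and 1.44 RPKM there. In mesendoderm EN1 was at or below 0.05 RPKM.

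Genes with a pattern most like that of HOXB2, HOXB6 and HOXB9 together were looked for by Pearson's r over the 9 libraries among 9199 genes with a group mean of at least 5 RPKM. The nearest were ZAP70 (r = 0.994), a kinase of T cells, and MSGN1 (r = 0.992), a factor of the presomitic mesoderm, followed by UBA3, COL5A1 and MPZL1 (0.987, 0.982 and 0.980). ZAP70 had 11.7, 1.24 and 8.35 RPKM and MSGN1 15.38, 2.71 and 12.58 RPKM in mesendoderm 1, 2 and 3. For HOXD1 the nearest were CCNYL1, NSRP1, MCU, SSB and SNAR-G2 (r from 0.922 to 0.942). CCNYL1 ran from 6.27 to 7.74 RPKM in hESC, from 4.31 to 5.58 RPKM in neuroectoderm and from 3.47 to 4.61 RPKM in mesendoderm. These points share libraries, 3 to a group, so the likeness follows the group means and the order of the libraries.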

How the data were processed

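The authors deposited RPKM values, 1 table with 38759 RefSeq transcripts, to 2 decimals. The submitters' processing notes name TopHat, TopHat2 2.0.13, Bowtie2 and hg19. Not given in the sources used here were the counting tool, its strand use and the RPKM denominator. Each of the 21417 symbols was represented by its transcript row with the highest mean. Group means of log2(RPKM + 1) were compared with limma 3.58.1 (R 4.3.3, trended prior) in 1 fit of all 9 libraries. Tested were 14473 symbols whose mean reached 0.5 RPKM, and calls needed an adjusted p (Benjamini-Hochberg) under 0.05. The fit was tested on simulated data.

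Depth was taken from hairpin microRNAs, of which 97.3% to 99.3% of 114 to 163 values per library were whole reads within 0.1 read. Read numbers of members use transcript lengths from GENCODE on GRCh38 and are approximate. Count tests were not used, since RPKM are not counts. Same-numbered libraries deviated with correlations from -0.738 to 0.401 and were not treated as pairs. The alternatives were other pseudocounts, filters, scalings and transcript rows, the 2 compared groups alone, a replicate block, no trend and each library left out, and, added after seeing the data, the 3 libraries that stood apart left out.

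The members, lists and markers were chosen with earlier results of these data known, so no list is independent evidence. All 10 members are given. From each list up to 4 genes were named, those with the largest change past the threshold in mesendoderm against hESC, and others named were chosen after their values were seen. Some genes of the lists are not reported here.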

Additional observations from a re-analysis of the deposited data

How the results depend on the processing

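With log2(RPKM + 0.1) or the 2 compared groups alone, 0 members were called in neuroectoderm against hESC, in place of 1 (HOXD1, limma adjusted p = 0.0504 and 0.0561). Leaving out single libraries gave 0 to 1 called members there, 2 to 4 in mesendoderm against hESC, where 2 remained without hESC 1, hESC 2 or mesendoderm 1, and 2 to 3 in neuroectoderm against mesendoderm. With no filter, 7 members were called in each comparison with mesendoderm, in place of 4 and 3, since more members were tested, and 6 in neuroectoderm against mesendoderm where the highest group mean had to reach 0.5 RPKM. The median SD of the HOXB genes over the mesendoderm libraries was 1.48 with log2(RPKM + 0.1), in place of 0.649, as low values then weigh more. No called difference changed sign. Some log2 differences that were not called did. HOXD1 in neuroectoderm against mesendoderm became -0.229 without the 3 libraries that stood apart and ran from -0.0608 (without neuroectoderm 1) to 0.451 over single libraries left out. In neuroectoderm against hESC, quantile normalization turned HOXB2 to 0.0185, HOXB4 to 0.00724 and HOXB6 to 0.0144, and leaving out the 3 libraries turned HOXB4 to 1.37e-04 and HOXB9 to -0.00738. Over single libraries left out HOXB2 ran from -0.0276 to 0.0213 and HOXB9 from -0.0141 to 0.0211. Counts of called genes stayed within 1.5 times.

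The replicate number as a block left the members called among those tested at 1, 4 and 3 in neuroectoderm against hESC, mesendoderm against hESC and neuroectoderm against mesendoderm, with 5643, 4224 and 6250 genes called. The numbers do not pair the libraries. With the 2 compared groups alone 2 members were called in neuroectoderm against mesendoderm, without HOXB9 (limma adjusted p = 0.0532). With the block, HOXB1 and HOXB7 lost their calls in neuroectoderm against mesendoderm (limma adjusted p = 0.0660 and 0.0662), as they did without the mean-variance trend. With small RNA genes left out, the median log2 difference of all genes was -0.12 in both comparisons with hESC, in place of -0.02, and the calls split into 2060 higher and 3525 lower for neuroectoderm, in place of 3165 and 3228, and into 1714 and 2781 for mesendoderm, in place of 2457 and 2620. HOXB5 then passed in both comparisons with mesendoderm (0.0490 and 0.0395). Leaving 2 libraries in a group assumes that they vary like the other groups. Depth limits HOXB values near 0, where a few reads decide.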
